A study of Mus musculus with 32 samples.

Results

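The genes described here are App, which encodes the amyloid precursor protein, and 8 genes of the proteases that cut it: Adam10, Bace1, Bace2, Psen2, Ncstn, Aph1a, Aph1b and Psenen. They were chosen by name from the 55401 genes of the count table, and all 9 of 9 were found and passed the filter on low counts. RNA was sequenced from the cerebral cortex of 32 mice aged 6 weeks. The 12 +/+ mice are euploid, and the 10 Ts65Dn;Df(17)2 mice carry a freestanding additional chromosome made of distal chromosome 16 joined to the centromeric end of chromosome 17. In the 10 Dp(16)1/Df(16)8 mice the chromosome 16 region is instead duplicated in place. As background, the deficiencies Df(17)2 and Df(16)8 return stretches that the aneuploid lines do not share to the normal dose. No transgene or Cre is named in the labels, and each library has its own animal number. App and Bace2 have 3 copies in both aneuploid genotypes and 2 copies in +/+, a ratio of 1.5, and the other 7 genes have 2 copies in all 3 genotypes.

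The amyloid precursor protein is a membrane protein of neurons and other cells that can be cut along competing routes. Alpha-secretase, chiefly Adam10 in neurons, cuts inside the amyloid peptide, whereas beta-secretase, Bace1, cuts at its start. Gamma-secretase, a complex of a presenilin, nicastrin (Ncstn), an Aph1 subunit and Psenen, then cuts inside the membrane and sets the end of the peptide. An additional copy of App is a recognised cause of early amyloid deposition in Down syndrome.

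App lies on chromosome 16 of GRCm38, minus strand, at chr16:84949685-85173766. Its annotation held 6 complete coding transcripts, with proteins of 582 to 770 residues, and 5 of the 6 held the amyloid stretch. The stretch is shown because the members act on it. It is split over exons 16 and 17 of 18, at chr16:84965670-84965726 and chr16:84962794-84962868. The capitals mark the codons of residues 1, 40 and 42 of the peptide, where beta-secretase cuts in front of the first and gamma-secretase near the others, and the first residue is number 672 of the 770. Counts were summed over each gene, so they do not separate these transcripts.
App coding strand: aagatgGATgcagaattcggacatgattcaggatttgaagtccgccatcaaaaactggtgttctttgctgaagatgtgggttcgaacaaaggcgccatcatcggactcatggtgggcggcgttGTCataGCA

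Libraries held 5795479 to 11189548 counts, with medians of 7547437.5 in +/+, 8213596 in Ts65Dn;Df(17)2 and 7753842.5 in Dp(16)1/Df(16)8. Markers of cortical excitatory neurons, 8 of 8 tested and none at 0, summed to 779, 1824 and 1988 CPM (counts relative to the library total multiplied by its TMM scaling factor; lowest, median, highest) in +/+. The same sums were 717, 1205 and 1515 in Ts65Dn;Df(17)2 and 639, 1215 and 1947 in Dp(16)1/Df(16)8. Markers of striatal neurons, 15 of 15 tested and none at 0, summed to 688.5, 1341 and 5821 CPM in +/+, to 1505, 3898 and 5218 in Ts65Dn;Df(17)2 and to 734, 3960 and 5788 in Dp(16)1/Df(16)8. The cortical samples therefore held the defining markers of cortex in every group, with striatal markers in amounts that varied widely within and between groups. The library Dp(16)1/Df(16)8 replicate 2 is labelled female but had 1.57 CPM of Xist and 78.0 CPM of Ddx3y. The other 15 libraries labelled female had 1287 to 1995 CPM of Xist and at most 0.122 CPM of Ddx3y. It was kept under its label in the fits.

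App was higher in every aneuploid library than in every euploid one. Its level was 1257, 1454 and 1605 CPM in +/+ (lowest, median, highest), 1855, 2029 and 2178 in Ts65Dn;Df(17)2 and 1904, 2124 and 2352 in Dp(16)1/Df(16)8. The groups did not overlap with +/+ in either comparison, while the aneuploid genotypes overlapped with each other. In CPM, groups that did not overlap and were higher than +/+ were found for 0.33% of the 16042 tested genes in Ts65Dn;Df(17)2 and for 0.243% in Dp(16)1/Df(16)8. Raw counts of App ran from 8485 to 12360 in +/+, so counting error gave a coefficient of variation of only 0.966%, below the 6.57% observed among the 12 libraries.

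App rose 1.41-fold in Ts65Dn;Df(17)2 (log2 fold change 0.50, SE 0.040, n = 10 against 12, edgeR quasi-likelihood test, Benjamini-Hochberg adjusted p = 5.293e-11). The 95% interval of that fold, 1.34 to 1.49, lay below the 1.5 of the copy number. In Dp(16)1/Df(16)8 App rose 1.47-fold (log2 fold change 0.55, SE 0.040, edgeR adjusted p = 3.533e-12), with an interval of 1.39 to 1.55 that held 1.5. Both comparisons use the same 12 +/+ libraries. Set against each other, the aneuploid genotypes differed by a fold of 0.962, with an interval of 0.9075 to 1.02 and an edgeR adjusted p of 0.9998. No difference in App between them was detected. Against the mean of +/+ animals of the same labelled sex, 1 of 10 Ts65Dn;Df(17)2 libraries and 3 of 10 Dp(16)1/Df(16)8 libraries lay above 1.5. Those folds ran from 1.32 to 1.51 in Ts65Dn;Df(17)2 and from 1.29 to 1.615 in Dp(16)1/Df(16)8.

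**Figure D1:**
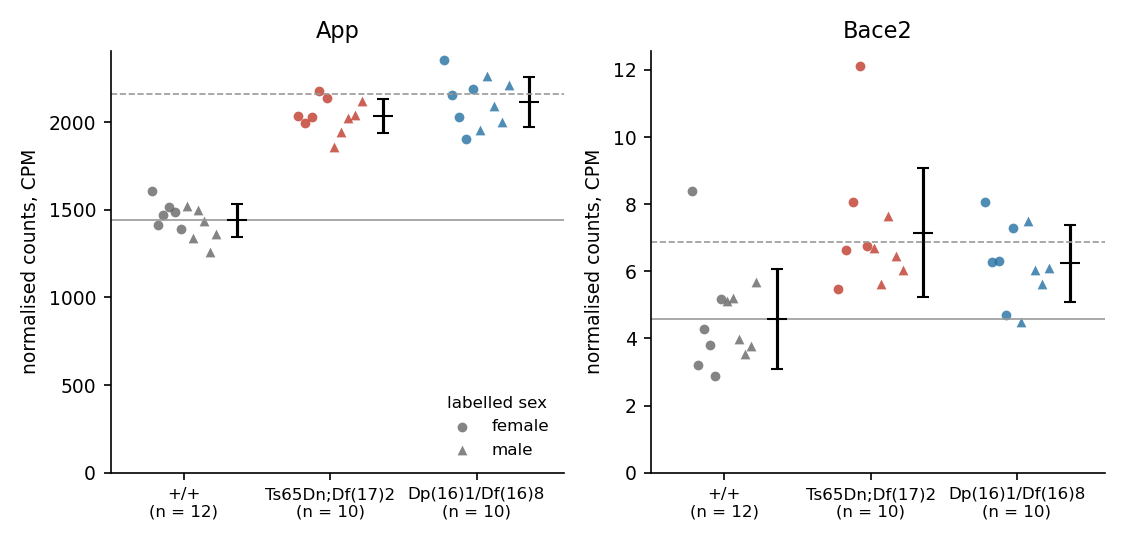
Normalised counts (CPM) of App (left) and Bace2 (right) in each of the 32 libraries, by genotype, with circles for labelled females and triangles for labelled males. Black marks are means with 1 SD, the solid line is the mean of +/+ and the dashed line 1.5 times that mean. For App all 20 aneuploid libraries lie above the highest +/+ library, at 1605 CPM, and for Bace2 the groups overlap.

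Within a library, App was also set against Aplp2, a paralog that has no additional copy and whose protein was 57.6% identical to App over 706 aligned residues. The log2 ratio of App to Aplp2 was 1.67 ± 0.089 in +/+ (SD, n = 12), 2.17 ± 0.075 in Ts65Dn;Df(17)2 (n = 10) and 2.24 ± 0.080 in Dp(16)1/Df(16)8 (n = 10). The ratio was 1.41-fold higher in Ts65Dn;Df(17)2 and 1.48-fold higher in Dp(16)1/Df(16)8, in 10 of 10 libraries above the highest +/+ library in both. The two-sided permutation p was 2e-05 in both, the smallest that 100000 permutations can give, and 6e-05 when adjusted over the 6 ratio comparisons made. Between the aneuploid genotypes the ratio differed by a fold of 0.9545 (permutation p = 0.07048, adjusted 0.08458), which did not pass 0.05. Aplp2 itself had folds of 1.00 and 0.993 against +/+ in Ts65Dn;Df(17)2 and Dp(16)1/Df(16)8, and Aplp1, the remaining paralog, had folds of 0.989 and 0.986. Neither paralog passed the test.

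The level of App also differed between libraries of a single genotype, alongside the makeup of the sample. After genotype and sex were removed, log2 CPM of App over the 32 libraries had a Pearson r of 0.82 with the summed excitatory neuron markers (Spearman rho 0.75, permutation p = 1e-05 for both, the smallest they can give, adjusted 0.000216). It had an r of -0.65 with the summed striatal markers (rho -0.70, permutation p = 9e-05, adjusted 0.001215). With markers of interneurons r was -0.84, of hippocampus -0.90, of microglia -0.68 and of astrocytes 0.60. These 6 of the 12 relations examined for App passed 0.05 when adjusted over 108 relations of all members. Without the 2 libraries farthest from the median of each marker sum, r was 0.73 for excitatory, -0.63 for striatal and -0.88 for hippocampal markers. The marker sums share library and depth with App, and markers of different lists are not independent of each other. The interneuron list held Gad1, Gad2, Slc32a1, Pvalb, Sst, Vip and Lhx6. The hippocampal list held Prox1, Zbtb20, Dsp, Calb2 and Spink8, of which 4 of 5 were tested. Whether these sums measure only the named cells or region was not tested.

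Within genotypes the observed r values of these relations were not all of the same size. App and the excitatory markers had an r of 0.88 among the 12 +/+ libraries and 0.98 among the 10 Dp(16)1/Df(16)8 libraries, but 0.30 among the 10 Ts65Dn;Df(17)2 libraries. For the striatal markers the same values were -0.72, -0.82 and 0.14, and for the hippocampal markers -0.91, -0.95 and -0.73. Whether these r values differ between genotypes was not tested. The mean log2 CPM of the striatal markers had an SD of 0.587 in Ts65Dn;Df(17)2, 1.371 in +/+ and 1.33 in Dp(16)1/Df(16)8. The part of this narrower spread in the r values was not tested. With blocks of neighbouring animal numbers removed as well, r over the 32 libraries was 0.79 for excitatory, -0.63 for striatal and -0.90 for hippocampal markers.

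The fold of App was therefore also fitted with marker scores as terms. With the striatal marker score as a term App was 1.47-fold higher in Ts65Dn;Df(17)2, with an interval of 1.40 to 1.55, and 1.499-fold higher in Dp(16)1/Df(16)8, with an interval of 1.43 to 1.57. With the excitatory neuron marker score, a term chosen after seeing the data, the folds were 1.51 (1.44 to 1.57) and 1.53 (1.47 to 1.59). With terms for blocks of neighbouring animal numbers they were 1.36 (1.26 to 1.48) and 1.46 (1.38 to 1.55). All 6 of these changes passed the edgeR test, with adjusted p of at most 2.252e-05. The interval of App in Ts65Dn;Df(17)2 held 1.5 with either marker score as a term. It lay below 1.5 with no such term or with the blocks. Each score was fitted with the same slope in all genotypes. Among the Ts65Dn;Df(17)2 libraries alone, r of App was 0.14 with the summed striatal and 0.30 with the summed excitatory markers. Whether the shared slope holds in that genotype was not tested. In bulk tissue, fewer cells of a type and less RNA per cell cannot be told apart, and the part of sample makeup in the fold of App was not tested beyond these fits.

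**Figure D2:**
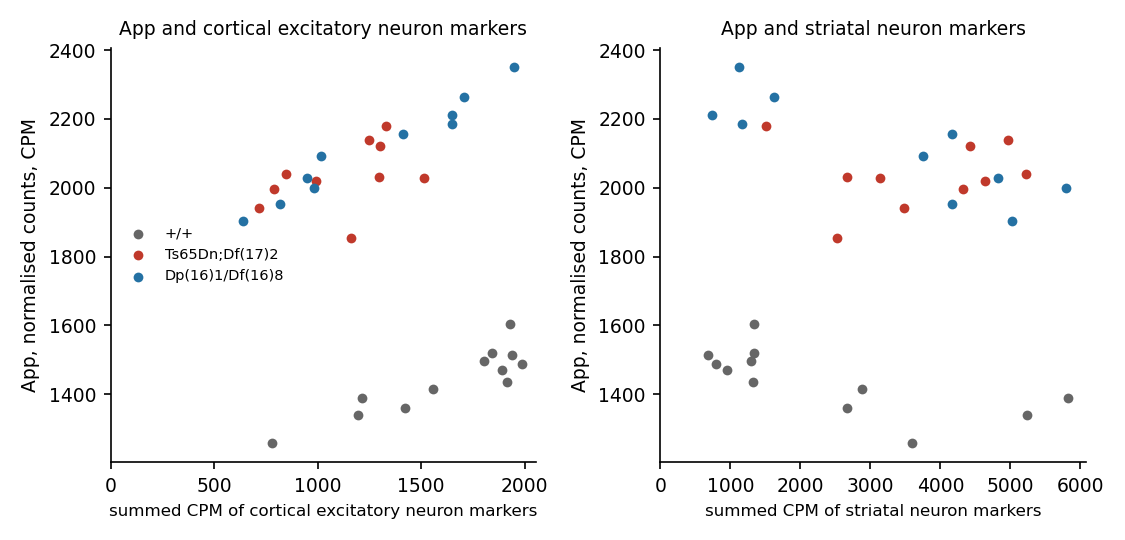
App in CPM (vertical axis, which does not start at 0) against the summed CPM of the 8 cortical excitatory neuron markers (left) and the 15 striatal neuron markers (right), 1 point per library, coloured by genotype. In +/+ and Dp(16)1/Df(16)8 App is higher where the excitatory sum is higher, and the 20 aneuploid libraries all lie above the 12 +/+ libraries.

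Among the proteases, Adam10, the main alpha-secretase of neurons, is encoded at chr9:70678997-70780229, plus strand. It passed the test in neither aneuploid genotype. Its level was 102, 117.5 and 129.8 CPM in +/+ (lowest, median, highest), 109.5, 113 and 121 in Ts65Dn;Df(17)2 and 103, 117 and 131 in Dp(16)1/Df(16)8, and the 3 groups overlapped. The fold was 0.977 in Ts65Dn;Df(17)2, with a 95% interval of 0.925 to 1.03, and 1.01 in Dp(16)1/Df(16)8, with an interval of 0.953 to 1.06. The edgeR adjusted p values were 0.6543 and 0.9402.

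Adam10 was the member whose level most closely followed App from library to library. Of 36 pairs of members, the pair of App and Adam10 was the only one past 0.05 after adjustment, with an r of 0.63 (permutation p = 0.00012, adjusted 0.00432) and a rho of 0.60 (permutation p = 0.00032, adjusted 0.01152) over 32 libraries. Without the 2 libraries farthest from the median of App, r was 0.54. Within genotypes r was 0.83 in +/+, 0.72 in Dp(16)1/Df(16)8 and -0.32 in Ts65Dn;Df(17)2, and with blocks of animal numbers removed it was 0.65 over all 32 libraries. Adam10 also had an r of 0.79 with the excitatory markers, -0.63 with the striatal and -0.71 with the hippocampal markers, each past 0.05 after adjustment. The part of these markers in the relation of App and Adam10 was not tested.

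The stretches in front of the start sites of these 2 genes are shown because theirs were the only levels among the members that moved together past the threshold. They are the 250 bases before the RefSeq start of each gene in GRCm38.p6, App at chr16:85173708-85173957, minus strand, and Adam10 at chr9:70678732-70678981, plus strand. Capitals mark the GC box GGGCGG, or CCGCCC where it lies on the other strand, a letter pattern bound by Sp1-type factors.
App: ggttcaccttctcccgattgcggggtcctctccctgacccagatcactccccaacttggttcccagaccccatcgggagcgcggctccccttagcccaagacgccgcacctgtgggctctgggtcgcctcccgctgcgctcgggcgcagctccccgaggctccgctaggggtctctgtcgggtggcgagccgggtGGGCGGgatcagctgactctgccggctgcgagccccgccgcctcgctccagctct
Adam10: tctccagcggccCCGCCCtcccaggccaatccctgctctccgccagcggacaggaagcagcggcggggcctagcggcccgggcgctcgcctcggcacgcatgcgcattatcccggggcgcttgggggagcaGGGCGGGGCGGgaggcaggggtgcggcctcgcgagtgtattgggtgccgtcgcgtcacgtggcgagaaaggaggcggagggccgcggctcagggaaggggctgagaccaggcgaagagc
The App stretch held 1 GC box and the Adam10 stretch 3, and 32.7% of 32851 mouse promoter windows of that length held at least 1 on either strand. Their content of G and C was 70.8% and 74%, against a median of 52.4% over all windows. CCAAT was found 0 times for App and 2 times for Adam10 (33.8% of all windows held it), TATAAA 0 times for both (12.4%), and the E box CANNTG 2 times and 1 time (66.2%). These are matches of letters and not shown binding sites. The RefSeq table held a window for 7 of the 9 members.

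Bace1, the beta-secretase that makes the first cut toward the amyloid peptide, also passed in neither. It lies at chr9:45838580-45864399, plus strand. Its level was 115, 129.5 and 141 CPM in +/+ (lowest, median, highest), 121, 124 and 139 in Ts65Dn;Df(17)2 and 121, 128 and 138 in Dp(16)1/Df(16)8, so the aneuploid libraries lay within the range of +/+. The fold was 0.984 in Ts65Dn;Df(17)2, with an interval of 0.934 to 1.04, and 1.01 in Dp(16)1/Df(16)8, with an interval of 0.954 to 1.06 (edgeR adjusted p = 0.7598 and 0.9467). Part of Bace1 overlaps genes on the other strand, with Rnf214 covering 15.4% of its exon bases, and 28.5% of its 50-base words also occur in another gene. The strand setting of the counting is not given in the sources used here, so reads of overlapping genes cannot be told apart. Bace1 was lower in libraries with more oligodendrocyte markers, with an r of -0.58 (rho -0.55, permutation p = 0.00047, adjusted 0.004614) over 32 libraries, and r was negative in each genotype, at -0.79 in +/+, -0.54 in Ts65Dn;Df(17)2 and -0.40 in Dp(16)1/Df(16)8.

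Bace2, the second member with an additional copy, is a relative of Bace1 that cuts the precursor chiefly inside the amyloid sequence. It lies at chr16:97356742-97442936, plus strand, and its protein was 50.1% identical to that of Bace1 over 489 aligned residues. It was the least abundant of the 9 genes, with 24 to 57 raw counts in +/+ libraries. Its level was 2.89, 4.14 and 8.41 CPM in +/+ (lowest, median, highest), 5.48, 6.67 and 12.1 in Ts65Dn;Df(17)2 and 4.50, 6.19 and 8.05 in Dp(16)1/Df(16)8. Both aneuploid groups overlapped with +/+, in which replicate 1 stood at 8.41 CPM and the other 11 libraries at 2.89 to 5.68. In Ts65Dn;Df(17)2 replicate 4 stood at 12.1 CPM and the next library at 8.08.

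Bace2 rose 1.56-fold in Ts65Dn;Df(17)2 (log2 fold change 0.64, SE 0.15, edgeR adjusted p = 0.01630), with an interval of 1.26 to 1.93 that held 1.5, and 10 of 10 libraries lay above the mean of +/+. Its fold in Dp(16)1/Df(16)8 was 1.37, with an interval of 1.10 to 1.70 that also held 1.5 and 9 of 10 libraries above the +/+ mean, but the edgeR adjusted p was 0.2126 and the unadjusted p 0.005781. The fold between the aneuploid genotypes was 1.14, with an interval of 0.916 to 1.41 (edgeR adjusted p = 0.9998), so a difference between them was not shown. Counting error alone gave a coefficient of variation of 17.2% in +/+, where 32.4% was observed. In Ts65Dn;Df(17)2 it gave 13.1% where 26.9% was observed, and in Dp(16)1/Df(16)8 14.6% where 18.4% was observed. Low counts and a spread among libraries beyond counting error both limit what can be said of Bace2.

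The call of Bace2 in Ts65Dn;Df(17)2 was lost with terms for blocks of neighbouring animal numbers (fold 1.30, edgeR adjusted p = 0.526). The SE of its log2 fold change was 0.23 with the blocks and 0.15 without them. The call was also lost without the 2 animals numbered below 30000 (fold 1.44, edgeR adjusted p = 0.05702), which include replicate 4. Without replicate 4 alone the fold was 1.44 and the adjusted p 0.03886, and without +/+ replicate 1 they were 1.68 and 0.001674. Leaving out +/+ replicate 1 in the Dp(16)1/Df(16)8 comparison gave a fold of 1.475 and an adjusted p of 0.06163. The log2 ratio of Bace2 to Bace1 within a library was -4.78 ± 0.44 in +/+ (SD, n = 12), -4.13 ± 0.28 in Ts65Dn;Df(17)2 (n = 10) and -4.335 ± 0.28 in Dp(16)1/Df(16)8 (n = 10). By a two-sided permutation test over the same 6 comparisons the ratio was 1.57-fold higher in Ts65Dn;Df(17)2 (p = 0.00096, adjusted 0.00192) and 1.36-fold higher in Dp(16)1/Df(16)8 (p = 0.01406, adjusted 0.02109), in 10 of 10 libraries above the +/+ mean in both. Between the aneuploid genotypes it differed 1.155-fold (permutation p = 0.1178, adjusted 0.1178).

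The 5 measured genes of the gamma-secretase complex, each with 2 copies in all genotypes, did not pass the test in either aneuploid genotype. Psen2, a presenilin and so a catalytic subunit, lies at chr1:180227004-180263438, minus strand, and had 6.64, 8.355 and 10.99 CPM in +/+ (lowest, median, highest), 7.45, 9.36 and 11.4 in Ts65Dn;Df(17)2 and 7.51, 8.82 and 9.79 in Dp(16)1/Df(16)8. Its folds were 1.08 (0.956 to 1.22) and 1.04 (0.916 to 1.17), the highest of the 7 genes with 2 copies in both comparisons.

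Ncstn encodes nicastrin, the subunit with the large outer domain, at chr1:172066013-172082795, minus strand. It had 43.7, 48.1 and 60.6 CPM in +/+, 41.7, 47.3 and 54.2 in Ts65Dn;Df(17)2 and 45.2, 46.2 and 54.3 in Dp(16)1/Df(16)8. Its folds were 0.958 (0.8865 to 1.035) and 0.954 (0.883 to 1.03), and the aneuploid ranges lay largely inside that of +/+.

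Aph1a and Aph1b are alternative scaffold subunits, and their proteins were 57.2% identical over 257 aligned residues. Aph1a, at chr3:95893969-95898288, plus strand, had 10.2, 12.3 and 14.8 CPM in +/+, 9.74, 13.4 and 15 in Ts65Dn;Df(17)2 and 9.38, 11.5 and 14.7 in Dp(16)1/Df(16)8. Its folds were 1.02 (0.898 to 1.15) and 0.9555 (0.843 to 1.08). Aph1b, at chr9:66775202-66795490, minus strand, had 25.3, 32.6 and 35.9 CPM in +/+, 28.7, 32.4 and 35.4 in Ts65Dn;Df(17)2 and 26.5, 31.5 and 37.3 in Dp(16)1/Df(16)8, with folds of 0.999 (0.922 to 1.08) and 0.983 (0.907 to 1.065). The counts of both are uncertain in part. Of the 50-base words of Aph1b 18.4% also occur in Aph1c, whose protein was 95.7% identical, and of those of Aph1a 39.5% occur in other genes, Gm15429 and Car14 among them.

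Psenen encodes the small subunit that completes the complex, at chr7:30561863-30563627, minus strand. It had 9.15, 10.2 and 12.3 CPM in +/+, 8.28, 9.80 and 12.03 in Ts65Dn;Df(17)2 and 7.54, 10.6 and 12.1 in Dp(16)1/Df(16)8, with folds of 0.967 (0.872 to 1.07) and 1.00 (0.904 to 1.11). For this gene 23.4% of the 50-base words occur in another gene.

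Counted together, 2 of 9 members rose in Ts65Dn;Df(17)2, where 3.97% of all tested genes were called in either direction and 1.75% were called higher. For Dp(16)1/Df(16)8 1 of 9 rose, where 0.573% were called and 0.418% were called higher. Of the 7 genes with 2 copies, 0 were called by edgeR in either comparison, and 0 had an unadjusted p under 0.05 (21.8% and 12.8% of all tested genes did). DESeq2 and limma voom also called 0 of the 7, and the share of all genes they called is not given here. The median log2 fold change of the 7 genes was -0.02 in Ts65Dn;Df(17)2, against 0.0047 over all tested genes, and 0.0029 in Dp(16)1/Df(16)8, against 0.0014. The highest upper bound among their intervals was 1.22 and the lowest lower bound 0.843, so a change of 1.5-fold lay outside the interval of each. Between the aneuploid genotypes 0 of 9 members were called by edgeR, with 0.0499% of all genes called. No member passed the test of a genotype by sex interaction (edgeR adjusted p from 0.9958 to 0.9996), and 0% of all genes did, while 4.22% had an unadjusted p under 0.05. The lowest unadjusted p of a member was 0.1536, for Ncstn.

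**Figure D3:**
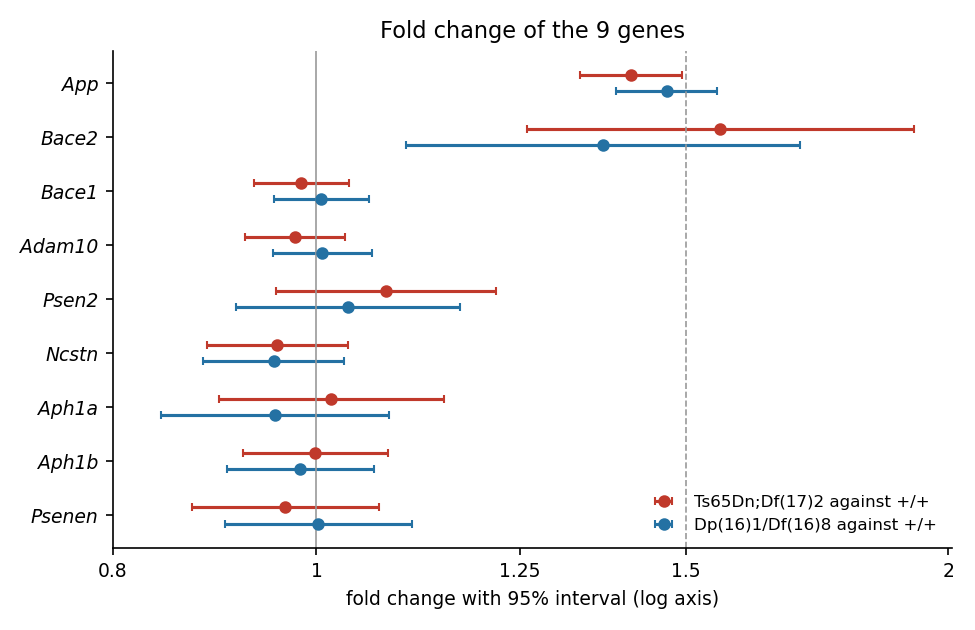
Fold change of the 9 genes in Ts65Dn;Df(17)2 (red) and Dp(16)1/Df(16)8 (blue) against +/+, with 95% intervals from the edgeR fit, on a log axis. The solid line is at 1 and the dashed line at 1.5. App and Bace2 lie to the right with intervals above 1, and the 7 genes with 2 copies have intervals that include 1.

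Per length, App stood far above the enzymes that cut it. On the scale of CPM per kb of exon, its level in +/+ was 111 (96.7 to 123.5 over 12 libraries), followed by Adam10 at 23.9, Bace1 at 20.2, Ncstn at 12.55, Psenen at 8.125, Aph1b at 6.22, Aph1a at 3.596, Psen2 at 1.961 and Bace2 at 0.582. In +/+ the ranges of Adam10 and Bace1 overlapped, from 20.8 to 26.4 and from 18.2 to 22.2, and those of all other neighbours in the order did not. The order was the same in both aneuploid genotypes. There the ranges of Psenen and Aph1b overlapped as well, and those of Adam10 and Bace1 overlapped in Dp(16)1/Df(16)8 but not in Ts65Dn;Df(17)2. Per kb, App reached 157 in Ts65Dn;Df(17)2 and 163 in Dp(16)1/Df(16)8, and Bace2, at 0.907 and 0.791, remained last. The length is that of all annotated exons joined, so a gene with long, rarely used exons is placed too low.

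**Figure D4:**
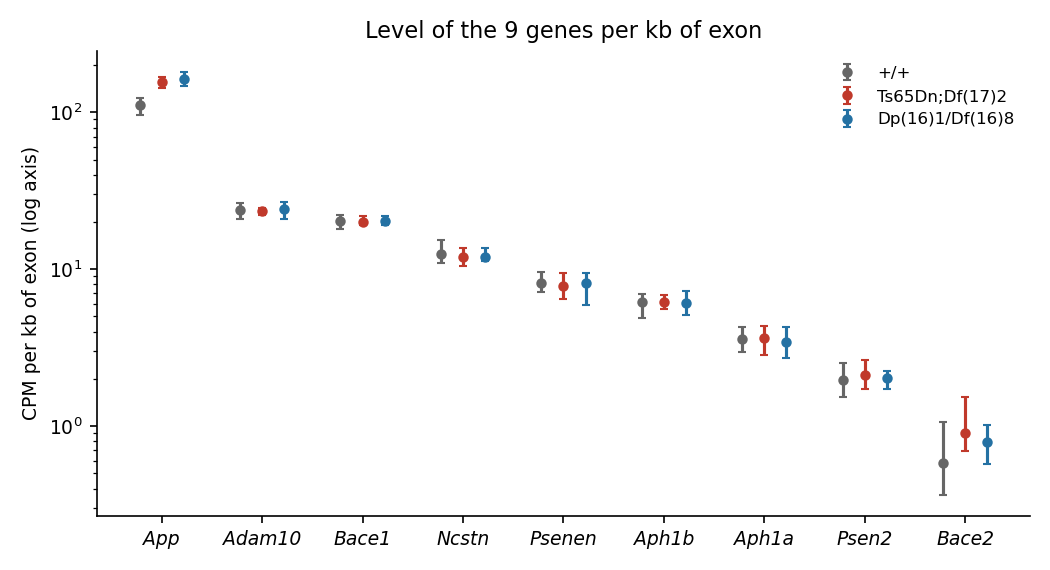
Mean CPM per kb of exon of the 9 genes in each genotype on a log axis, with bars from the lowest to the highest library, ordered by the level in +/+. App lies at 111 to 163, and the other genes between 0.582 and 24.03.

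Other tested genes that followed the members most closely from library to library were listed by the Pearson r of log2 CPM over the 32 libraries, with genotype and sex removed, as a description. Genes with provisional symbols, such as Gm and Rik names, were left out of this ranking. The values were picked as the highest over the ranked genes, and the height that such a pick reaches by chance was not tested. For App these were Calm3 (0.904), which encodes a calmodulin, Map3k5 (0.898) and Lrrc4 (0.889). For Adam10 they were Smap1 (0.862), Tmem63b (0.844) and Exd2 (0.839), and for Bace1 St6galnac5 (0.866), Ncs1 (0.827) and Ntf3 (0.782). Bace2 was most like Hmgcs1 (0.743), an enzyme of cholesterol synthesis, then Eif3c (0.621) and Lipt1 (0.615). Ncstn was most like Gdi2 (0.781), Tmem196 (0.767) and Eif4g2 (0.735). The highest values of the remaining members were lower, at 0.69 for Aph1a with Zfp598, 0.663 for Psen2 with Zfp57, 0.611 for Psenen with Tbx2 and 0.582 for Aph1b with Dnaja1.

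A list of 50 other genes of precursor processing, traffic and clearance was examined in 9 roles, and all 50 were tested. In Ts65Dn;Df(17)2 1 rose, 4 fell and 45 did not pass the edgeR test. The median log2 fold change was -0.06 against 0.0047 over all tested genes. Of the list 17 of 50 lay above 0, against 8244 of all 16042 tested genes. An unadjusted edgeR p under 0.05 was found for 18 of 50, against 3491 of 16042 (21.8%). For Dp(16)1/Df(16)8 0 rose, 1 fell and 49 did not pass, with a median of -0.02 against 0.0014. There 19 of 50 lay above 0, against 8103 of 16042. An unadjusted edgeR p under 0.05 was found for 11 of 50, against 2050 of 16042 (12.8%). Of all tested genes 1.75% were called higher and 2.22% lower in the first comparison, and 0.418% and 0.156% in the second. Between the aneuploid genotypes 0 of 50 were called by edgeR, 1 had an unadjusted p under 0.05 (4.1% of all tested genes did), and no alternative called any.

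Among proteases, Adam17, a further alpha-cleaving enzyme that also sheds tumour necrosis factor, had 17.1, 19.8 and 23.45 CPM in +/+ (lowest, median, highest) and 18.2, 24.01 and 30.9 in Ts65Dn;Df(17)2. It rose 1.20-fold there (edgeR adjusted p = 0.04727), a call lost under 7 of 10 alternatives and kept in 9 of 32 fits that left out 1 library. Under 5 of these 7 the fold was 1.19 to 1.24, and with the striatal and excitatory scores as terms it was 1.14 and 1.12. Tspan14, a tetraspanin that carries Adam10 to the cell surface, had 25.5, 34.8 and 46.9 CPM in +/+ and 21.2, 26.03 and 29.1 in Ts65Dn;Df(17)2, where it fell to a fold of 0.732 (edgeR adjusted p = 0.01050). Its fold in Dp(16)1/Df(16)8 was 0.7865, the lowest of the list, with an adjusted p of 0.1254. With the excitatory neuron marker score as a term the fold of Tspan14 in Ts65Dn;Df(17)2 was 0.893, with an adjusted p of 0.3593.

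Of the clearance genes, Clu, the amyloid-binding chaperone clusterin, fell in both aneuploid genotypes. It had 356, 391 and 431.5 CPM in +/+, 308, 333 and 379 in Ts65Dn;Df(17)2 and 320, 344.5 and 393 in Dp(16)1/Df(16)8, with folds of 0.8575 (edgeR adjusted p = 0.001191) and 0.8835 (edgeR adjusted p = 0.02321). Lrp1, an endocytic receptor for the precursor and for apolipoprotein E, had 951.5, 1049 and 1102 CPM in +/+ and 911, 944 and 985 in Ts65Dn;Df(17)2, and fell there to a fold of 0.902 (edgeR adjusted p = 0.002059). Its fold in Dp(16)1/Df(16)8 was 0.929, with an adjusted p of 0.0806. The call of Clu in Dp(16)1/Df(16)8 was lost with no filter on low counts (fold 0.882, adjusted p = 0.07798), with the excitatory score as a term (fold 0.902, adjusted p = 0.09163), and on leaving out any of +/+ replicates 7 and 10 and Dp(16)1/Df(16)8 replicates 3, 4, 6 and 9, where the adjusted p reached 0.06907. Over all 32 fits without 1 library its fold ran from 0.872 to 0.892. Clu is chiefly made by astrocytes, and the 8 astrocyte markers, all tested and none at 0, summed to 6025 to 7440 CPM in +/+, 5581 to 6908 in Ts65Dn;Df(17)2 and 5501 to 7294 in Dp(16)1/Df(16)8. Their part in the change of Clu was not tested.

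Sez6l2, a neuronal substrate of Bace1, had 279, 321 and 346 CPM in +/+ and 248, 269 and 310.1 in Ts65Dn;Df(17)2, where it fell to a fold of 0.861 (edgeR adjusted p = 0.02045). With the striatal marker score as a term 2 of the 50 genes were called in Ts65Dn;Df(17)2, with the excitatory score 3, and with blocks of neighbouring animal numbers 0. The genes called with the excitatory score included a gene that the fit without these terms did not call. The share of all tested genes called in these fits is not given here. The calls of Adam17, Tspan14 and Sez6l2 were lost under each of the 3 kinds of term, and those of Clu and Lrp1 under the blocks alone. With the blocks the folds were 1.24 for Adam17, 0.801 for Tspan14, 0.870 for Sez6l2, 0.853 for Clu and 0.926 for Lrp1, each in the direction of the fit without them.

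At the ends of the list, the highest folds in both comparisons were those of Mme, neprilysin, which degrades the amyloid peptide. They were 1.66 (1.04 to 2.64) and 1.39 (0.866 to 2.22), with edgeR adjusted p values of 0.1860 and 0.5612. The lowest fold in Ts65Dn;Df(17)2 was that of Ttr, transthyretin, at 0.197 with an interval of 0.0376 to 1.04 (edgeR adjusted p = 0.2403). Ttr is a marker of choroid plexus. The summed choroid plexus markers, 4 of 6 tested and none at 0, ran from 12.4 to 998.5 CPM in +/+. They ran from 23.4 to 100.1 in Ts65Dn;Df(17)2 and from 9.27 to 668 in Dp(16)1/Df(16)8. Ttr is itself in that sum, so the sum is not a measure apart from Ttr.

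**Figure D5:**
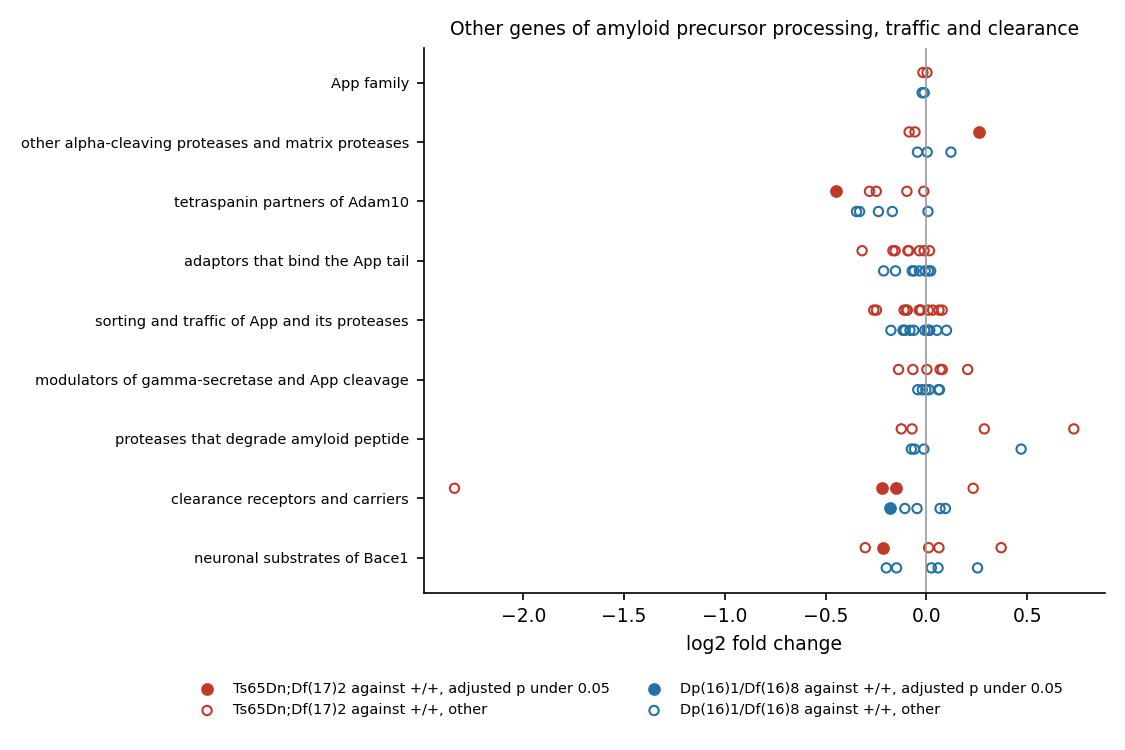
Log2 fold change of the 50 other genes by role in Ts65Dn;Df(17)2 (red) and Dp(16)1/Df(16)8 (blue) against +/+. Filled points passed an edgeR adjusted p of 0.05, which were 5 genes in Ts65Dn;Df(17)2 and 1 in Dp(16)1/Df(16)8. Most points lie within 0.5 of 0.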

How the data were processed

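Total RNA of cerebral cortex was depleted of ribosomal RNA, per the labels' protocols, and 32 libraries were sequenced. Raw counts per gene were deposited by the authors with no normalization. The submitters' processing notes name bcl2fastq 2.20, STAR 2.7.9a, featureCounts of Subread 1.6.4 and the builds GRCm38.p6 and GRCh38. The annotation release and the strand setting of the counting are not given in the sources used here. The labels give an animal number for each library and no replicate numbers, so replicates were numbered in accession order inside each genotype. Every count column was used.

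Genes were kept by filterByExpr of edgeR 4.0.16 (R 4.3.3), leaving 16042 genes with 99.7% of the counts. TMM factors scaled the libraries, also for CPM. One quasi-likelihood model held genotype and sex over all 32 libraries, with Benjamini-Hochberg adjustment across the 16042 genes and a threshold of 0.05. For log2 CPM a prior count of 2 was added. Ratios and correlations used 100000 permutations in scipy 1.17.1. Coordinates, exon lengths and coded proteins come from the GENCODE mouse annotation of GRCm38, by versioned identifier, for 54349 of 55401 genes and for all members. Promoter windows come from RefSeq. Marker scores are mean log2 CPM of a fixed list.

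The members and lists were chosen with earlier results of these data known. Named genes are all members and the pathway genes past the threshold, with the highest or lowest fold or of the App family. Also named are the tested genes most correlated with each member, leaving out provisional symbols. The relations with marker sums, the values within genotypes and the fit with the excitatory score were chosen after seeing the data. Alternatives were DESeq2 1.42.0, limma 3.58.1 voom, RLE scaling, no filter, no sex term, only the groups compared, terms for the striatal score or for 9 blocks of neighbouring animal numbers, leaving out animals numbered below 30000, a prior count of 0.5 for ratios, and leaving out each library. The fit and the permutation test were tested on simulated data. Each library is labelled as its own animal. Coefficients of variation from counting cover counting error only, because reads without molecular identifiers are not independent molecules.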

Additional observations from a re-analysis of the deposited data

Results flagged for a closer look

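Bace2 in Ts65Dn;Df(17)2 replicate 4 stood at 12.11 CPM, far from the other 9 libraries of its group, of which the next highest had 8.079 CPM. The gap was 0.609 of the range of the group, above the 95% critical value of 0.466 for 10 samples. It was the single such library among 18 groups of 10 that were checked, and chance alone gives about 1 group in 20. The 12 +/+ libraries were not checked this way, since the test covers groups of up to 10. Among them replicate 1 stood at 8.408 CPM of Bace2, with the next at 5.68 and the lowest at 2.887. Without +/+ replicate 1 the folds of Bace2 were 1.68 in Ts65Dn;Df(17)2 and 1.475 in Dp(16)1/Df(16)8 (edgeR adjusted p = 0.001674 and 0.06163). Without Ts65Dn;Df(17)2 replicate 4 the fold of Bace2 in that genotype was 1.44 (edgeR adjusted p = 0.03886).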

How the results depend on the processing

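App passed the edgeR threshold in both aneuploid genotypes under all 10 alternatives and in all 32 fits that left out 1 library, with folds of 1.36 to 1.51 in Ts65Dn;Df(17)2 and 1.45 to 1.53 in Dp(16)1/Df(16)8 over both kinds. Bace2 in Ts65Dn;Df(17)2 passed in 32 of 32 such fits (adjusted p from 0.001674 to 0.03886) and under 8 of 10 alternatives. Its log2 fold change was 0.3761 with blocks of animal numbers and 0.5283 without animals numbered below 30000, and the members past the threshold were then 1. In Dp(16)1/Df(16)8 Bace2 passed in 0. For the counts of pathway genes that follow, the share of all tested genes called in the same fit is not given here. These counts alone therefore do not set the pathway genes apart from other genes. Pathway genes past the threshold in Ts65Dn;Df(17)2 were 2 with the striatal score, 3 with the excitatory score and 0 with the blocks. Leaving out 1 library gave 4 to 8, with 8 without +/+ replicate 6 or 11. In Dp(16)1/Df(16)8 they were 0 with no filter or the excitatory score and 2 with the blocks or DESeq2. Leaving out 1 library gave 0 to 3, with 0 without +/+ replicates 7 or 10 or Dp(16)1/Df(16)8 replicates 3, 4, 6 or 9, 2 without +/+ replicates 9 or 11, and 3 without Dp(16)1/Df(16)8 replicate 1.

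Signs turned only for values that passed no test. In Ts65Dn;Df(17)2 against +/+, the striatal score gave log2 fold changes of 0.01296 for Bace1, 0.02189 for Adam10, -0.02812 for Aph1a and 0.0315 for Aph1b, and the excitatory score 0.007105, 0.0514, -0.05676 and 0.02874. The blocks gave 0.06302 for Aph1b and 0.04659 for Psenen, and limma voom 0.003082 for Aph1b. In Dp(16)1/Df(16)8 against +/+ the blocks gave -0.00664 for Adam10 and -0.01898 for Psenen. Between the aneuploid genotypes they gave -0.1212 for Bace2, which was 0.1861 without the blocks, and 0.06557 for Psenen, and leaving out animals numbered below 30000 gave -0.01636 for Ncstn and -0.002362 for Aph1b. The cause of these changes was not tested.

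Over the fits without 1 library, log2 fold changes in Ts65Dn;Df(17)2 ran from -0.005953 to 0.06234 for Aph1a and from -0.03241 to 0.01333 for Aph1b. In Dp(16)1/Df(16)8 they ran from -0.005768 to 0.02078 for Bace1, -0.008445 to 0.03114 for Adam10, -0.05537 to 0.001804 for Aph1b and -0.02909 to 0.04232 for Psenen. Between the aneuploid genotypes they ran from -0.01321 to 0.03402 for Ncstn and -0.00621 to 0.05145 for Aph1b. Without Dp(16)1/Df(16)8 replicate 2, whose labelled sex its transcripts go against, App had folds of 1.41 and 1.47 in the aneuploid genotypes, and Bace2 folds of 1.555 and 1.38. Depth limits Bace2 most, where a library holds 24 to 102 counts. No paired analysis was possible because the labels give no replicate numbers that pair libraries. Libraries were compared within 9 blocks of neighbouring animal numbers instead, 7 of which hold more than 1 genotype. The Ts65Dn;Df(17)2 libraries lay only in blocks 1, 6 and 7. Of these, block 1 held no other genotype, block 7 held only replicate 7 of +/+, and block 6 alone held Dp(16)1/Df(16)8 libraries. The fits of Ts65Dn;Df(17)2 with blocks therefore rest on few shared blocks.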
